A study of Mus musculus with 25 samples.

Results

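The metallothioneins of mouse brain were examined as 3 genes matched by symbol, Mt1, Mt2 and Mt3, of 23990 genes listed in the deposited expression table. Total RNA of prefrontal cortex (PFC) had been sequenced in 25 samples of 6 groups, per the labels, in a study of social defeat, a procedure that stresses a mouse by exposure to an aggressor, in male and female mice. The values below come from 1 group, M-stress/vehicle, which holds wild type C57BL/6 males aged 10 weeks that went through social defeat stress and received vehicle, in 5 replicates. Vehicle was the counterpart of a treatment with dihydrocaffeic acid/malvidin-glucoside, both plant phenolics, given for 2 weeks before the defeat sessions and during them. The 20 columns of the 5 other groups carry names that fit those groups equally well and were not used here. Neither stress nor treatment nor sex is therefore compared. The 5 columns were assigned on the reading that a letter in a column name marks a group and a number marks a replicate. Nothing in the labels states that the libraries are from separate animals, so p-values measure only the spread between these libraries, which may be technical.

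Metallothioneins are small proteins rich in cysteine that bind zinc and copper, buffer free metal ions and scavenge reactive oxygen. Mt1 and Mt2 are made in many tissues, in brain mainly by astrocytes, and are induced by metals through the zinc-sensing transcription factor MTF1 and by glucocorticoids, the stress hormones of the adrenal gland. Mt3, also named growth inhibitory factor, is made mostly in the central nervous system, in astrocytes and in neurons that store zinc in synaptic vesicles, and responds less to these inducers. Mt4, a gene of stratified epithelia, completes the family in mouse and is not listed in the table.

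The 3 genes lie in a row on the plus strand of chromosome 8 (GRCm38, GENCODE M21). Mt3 (ENSMUSG00000031760) spans 94152607 to 94154146. Mt2 (ENSMUSG00000031762) spans 94172664 to 94173568, and Mt1 (ENSMUSG00000031765) spans 94179082 to 94180327. The cluster covers 27721 bases from the start of Mt3 to the end of Mt1, with 18517 bases between Mt3 and Mt2 and 5513 bases between Mt2 and Mt1. In each gene the main spliced transcript (the lowest numbered in GENCODE) has 3 exons, and its length is 536 bases for Mt3, 549 for Mt1 and 511 for Mt2. All annotated exons merged, introns retained in some transcripts included, cover 1066 bases in Mt3, 1246 in Mt1 and 588 in Mt2. An antisense gene on the minus strand, Gm45774, overlaps 432 of the 588 exon bases of Mt2 (73.5%). Gm45774 has no row in the table, and the strand setting of the count is not given in the sources used here. Reads of Mt2 and of this antisense gene can therefore not be told apart.

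**Figure D1:**
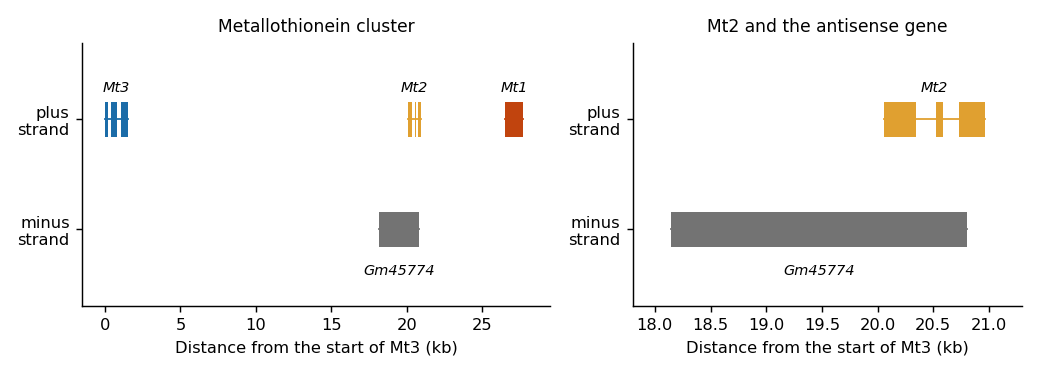
Map of the metallothionein cluster, with distance in kilobases from the start of Mt3 on the horizontal axis and the strand on the vertical axis. Boxes are merged exons in GENCODE M21, and the enlarged view shows that the antisense gene Gm45774 overlaps 73.5% of the exon bases of Mt2 and none of those of Mt3 or Mt1.

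The 250 bases before the RefSeq start of each gene are shown because the metal response element, the short site bound by MTF1, is what ties this family to zinc. They come from RefSeq, build GRCm38.p6, plus strand, at chr8:94152357-94152606 for Mt3, chr8:94178839-94179088 for Mt1 and chr8:94172368-94172617 for Mt2. The last bases of the Mt1 window lie inside the gene as GENCODE draws it. Capitals mark the core of the metal response element, searched on both strands as TGCACNC or TGCGCNC.

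Mt3: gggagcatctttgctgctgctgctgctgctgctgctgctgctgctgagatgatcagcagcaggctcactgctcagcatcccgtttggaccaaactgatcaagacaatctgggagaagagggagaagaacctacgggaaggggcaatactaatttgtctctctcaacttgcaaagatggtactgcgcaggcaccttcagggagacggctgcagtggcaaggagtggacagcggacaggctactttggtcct
Mt1: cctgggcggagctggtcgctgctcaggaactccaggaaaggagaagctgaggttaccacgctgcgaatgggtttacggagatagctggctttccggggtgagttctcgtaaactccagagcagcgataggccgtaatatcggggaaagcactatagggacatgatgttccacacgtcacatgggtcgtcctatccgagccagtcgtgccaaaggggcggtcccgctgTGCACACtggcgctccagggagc
Mt2: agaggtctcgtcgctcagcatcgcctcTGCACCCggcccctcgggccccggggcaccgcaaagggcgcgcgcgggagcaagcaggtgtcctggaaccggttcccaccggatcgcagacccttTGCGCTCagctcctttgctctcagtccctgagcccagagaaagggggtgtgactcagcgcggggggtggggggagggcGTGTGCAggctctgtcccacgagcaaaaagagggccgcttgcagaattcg

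The 3 windows differed in these letters. No core was found in the Mt3 window. The Mt1 window held 1 core, 23 bases before the start, and 21.4% of 32851 mouse promoter windows of this kind held at least 1. The Mt2 window held 3 cores, beginning 223, 128 and 50 bases before the start, the last of them on the minus strand, and 1.26% of the windows held as many. The antioxidant response core, searched as TGACNNNGC, was found once in the Mt2 window, 79 bases before the start, and in neither other window, while 10.2% of all windows held it. The full palindrome of the glucocorticoid response element was in none of the 3 windows and in 3 of all windows (0.00913%). Cores of the metal response element were also present downstream of the RefSeq start in every member. Between that start and the start codon, 3 cores lay in 193 bases of Mt3, 4 in 222 bases of Mt1 and 4 in 230 bases of Mt2. They lay 101 to 166 bases before the start codon in Mt3, 118 to 220 in Mt1 and 113 to 226 in Mt2. The counts before the start therefore depend on where the start is placed, and do not show that Mt3 lacks upstream cores. In the opening stretch of the same length, 0.565% of protein-coding transcripts held as many cores as Mt3, 0.152% as many as Mt1 and 0.157% as many as Mt2. A match describes letters and does not show that a factor binds there.

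All 3 genes were among the well-expressed transcripts of these libraries, which held 34565147 to 44265039 reads assigned to listed genes. Levels are given in CPM, reads scaled to a common library size, computed from the deposited log2 values, and errors are SDs over the 5 libraries. Mt3 stood at 303, 323, 307, 297 and 297 CPM in replicates 1 to 5. Replicate 2 was the highest and the other 4 lay close together. Mt1 stood at 215, 191, 195, 209 and 191 CPM, with replicates 1 and 4 above the other 3. Mt2 stood at 88.5, 83.3, 92.8, 96.3 and 85.9 CPM, highest in replicate 4 and lowest in replicate 2. No library was the highest for more than 1 of the 3 genes. The means were 305 ± 10.6 CPM for Mt3, 200.2 ± 10.98 CPM for Mt1 and 89.4 ± 5.21 CPM for Mt2 (SD, n = 5), and the highest library exceeded the lowest by a factor of 1.09 for Mt3, 1.12 for Mt1 and 1.16 for Mt2. These are levels in a tissue of mixed cells, in which fewer cells of a type and less RNA per cell cannot be told apart.

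**Figure D2:**
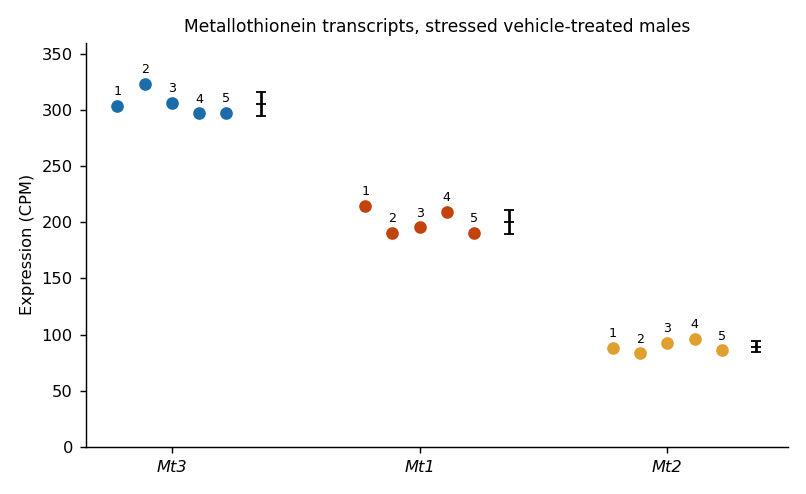
Expression of Mt3, Mt1 and Mt2 in CPM (reads scaled to library size, vertical axis from 0) in the 5 libraries of stressed vehicle-treated males, with each point a library and the bar and whisker the mean ± SD. Mt3 lies at 297 to 323 CPM, Mt1 at 191 to 215 CPM and Mt2 at 83.3 to 96.3 CPM, and the points of each gene stay close to its mean.

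The reads behind these values were many, so counting error was small. Mt3 had 10242 to 13677 reads per library, Mt1 7206 to 8922 and Mt2 3187 to 4139. The transcripts of the family resemble each other in part, with 79.4% identity over 194 aligned bases between Mt1 and Mt2, 80.6% over 98 bases between Mt3 and Mt1, and 75.3% over 158 bases between Mt3 and Mt2. A processed transcript of the lipid kinase gene Pip5k1a, listed at 57.9 CPM, aligned to Mt2 with 85.1% identity over 195 bases. Whether reads were divided between these sequences was not tested.

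Levels of different genes can be compared only per length, here in RPKM, CPM divided by exon length in kilobases. With all annotated exons merged, Mt3 had 286 ± 9.96 RPKM, Mt1 161 ± 8.81 RPKM and Mt2 152 ± 8.86 RPKM (SD, n = 5). Mt3 ranked 81, Mt1 185 and Mt2 198 among 23846 genes with a length, so that each was within the top 1% of listed genes. Mt3 exceeded Mt1 in 5 of 5 libraries, by a log2 RPKM difference of 0.84 ± 0.11, a factor of 1.78. Mt3 exceeded Mt2 in 5 of 5 libraries as well, by 0.92 ± 0.12, a factor of 1.89. In an exact sign-flip permutation test (two-sided), both had p = 0.0625, the smallest that 5 libraries allow, and an adjusted p of 0.0938 over the 3 pairs. This p holds only for the length used, because another length shifts the difference alike in every library. Mt1 and Mt2, neighbours in this order, differed by only 0.08 ± 0.078 on the log2 RPKM scale. Mt1 was above Mt2 in 4 of 5 libraries, with an exact permutation p of 0.125 (adjusted p = 0.125).

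The order of the levels depended on the length used. All reads of a gene were divided by each length in turn, so reads outside a shorter length raise its value. The longest transcript is the spliced form in Mt3, of 536 bases, and in Mt2, of 511. In Mt1 it has 1085 bases, against 549 for the spliced form, so unlike transcripts are compared. With the longest transcript of each gene, Mt3 had 569.8 ± 19.8 RPKM, Mt1 185 ± 10.1 RPKM and Mt2 175 ± 10.2 RPKM. Mt3 was then 3.09 times Mt1 and 3.26 times Mt2. With the spliced 3-exon transcript, which leaves out retained intron sequence, Mt1 had 365 RPKM, from 348 to 391 RPKM over libraries, and was 2.09 times Mt2. With the 156 exon bases of Mt2 that the antisense gene does not cover, and all Mt2 reads taken as coming from them, Mt2 had 573 ± 33.4 RPKM. That value is too high if some counted Mt2 reads lie in the overlapped bases. Whether reads in those bases were instead dropped from the count is not known. The value placed Mt2 above Mt3 and Mt1, with log2 differences of -0.999 for Mt3 minus Mt2 and -1.83 for Mt1 minus Mt2. Both reversed differences also had p = 0.0625 in the exact sign-flip test, so that p does not settle the order. Mt3 was above Mt1 under every length used here, by a factor of 1.56 to 3.09, whereas the place of Mt2 was not fixed.

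**Figure D3:**
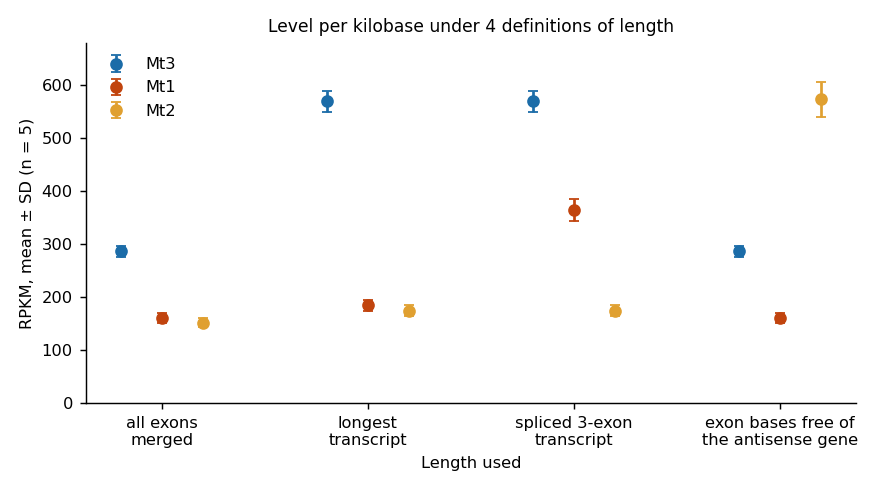
Level of Mt3, Mt1 and Mt2 in RPKM (vertical axis, mean ± SD, n = 5 libraries) under 4 definitions of gene length. Mt3 stays above Mt1 throughout, at 286 against 161 RPKM with merged exons, while Mt2 moves between 152 RPKM with merged exons and 573 RPKM with exon bases free of the antisense gene.

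The 3 genes together stood at 607, 597, 595, 602 and 574 CPM in replicates 1 to 5, a mean of 595 ± 12.6 CPM with a coefficient of variation (CV, the SD as a share of the mean) of 2.12%. Of the reads of the family, Mt3 held 51.3 ± 1.84%, between 49.3 and 54.1%. Mt1 held 33.6 ± 1.39%, between 31.97 and 35.4%, and Mt2 held 15.0 ± 0.806%, between 13.96 and 15.99%. These shares are of reads and include the effect of length.

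Each member varied more than counting error allows, Mt1 and Mt2 about as much as other genes of their level and Mt3 less than most. A chi-square test asked whether the reads of a gene followed the effective library sizes, with Benjamini-Hochberg adjustment over all genes tested and a threshold of 0.05. It called 3 of 3 metallothioneins, in a table where 74.4% of 19239 genes were called, so the calls do not set the family apart. The adjusted p was 9.87e-11 for Mt3, 6.61e-19 for Mt1 and 1.21e-08 for Mt2. The CV left after counting error, which is the CV meant from here on, was 3.35% for Mt3, 5.37% for Mt1 and 5.58% for Mt2. The median over 14524 genes with at least 1 CPM was 8.25%, with quartiles of 5.18 and 13.5%. Abundant genes vary less, so each member was also set beside the 501 genes nearest to it in level. For Mt3 their median CV was 6.66%, and 58 of the 501 had a smaller CV than Mt3. For Mt1 the median was 6.38% and 181 had a smaller CV, and for Mt2 the median was 6.69% and 191 had a smaller CV. Mt1 and Mt2 therefore lay inside the quartiles of genes of like level and Mt3 below the lower quartile of 4.52%. The spread of Mt3 was smaller without replicate 2, its highest library. The CV was then 1.30% and the adjusted p of the chi-square test 0.0402.

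**Figure D4:**
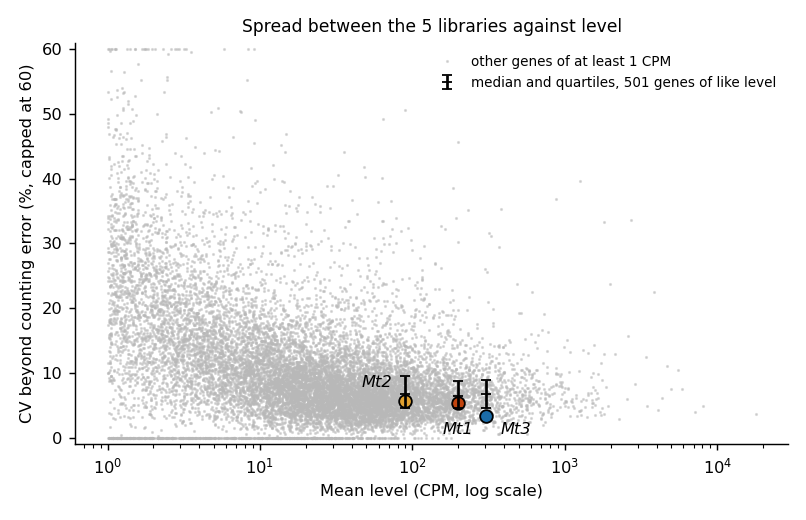
Coefficient of variation beyond counting error (vertical axis, percent, capped at 60) against mean level (CPM, log axis) for genes of at least 1 CPM over the 5 libraries, with Mt3, Mt1 and Mt2 in colour. Black bars give the median and quartiles of the 501 genes nearest in level, and Mt3 at 3.35% lies below its bar while Mt1 at 5.37% and Mt2 at 5.58% lie inside theirs.

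The members did not follow a single pattern from library to library. As deviations from the gene's own mean on the log2 scale, Mt3 stood at -0.01, 0.08, 0.01, -0.04 and -0.04 in replicates 1 to 5. Mt1 stood at 0.10, -0.07, -0.03, 0.06 and -0.07, and Mt2 at -0.01, -0.10, 0.06, 0.11 and -0.05. Replicate 2, the highest for Mt3, was low for Mt1 and the lowest for Mt2. Replicate 4 was above the mean for Mt1 and Mt2 and below it for Mt3. How closely a pair moved together was described by the SD over libraries of their log2 ratio. For genes with no shared movement, this SD is the root of the summed squares of the genes' own SDs, which were 0.049 for Mt3, 0.078 for Mt1 and 0.084 for Mt2. The log2 ratio of Mt3 to Mt1 had an SD of 0.109, against 0.0926 for no shared movement, and that of Mt3 to Mt2 an SD of 0.120, against 0.0973. The ratio of Mt1 to Mt2 had an SD of 0.078, against 0.115. In these 5 libraries the ratio of Mt1 to Mt2 was thus steadier than with no shared movement, and neither ratio of Mt3 was. The approximate standard error of these SDs was 0.028 for Mt1 to Mt2. It was 0.038 for Mt3 to Mt1 and 0.042 for Mt3 to Mt2. Whether the gaps exceed what unrelated genes would show was not tested. Without replicate 1 the SD of the Mt1 to Mt2 ratio was 0.0513, against 0.114, the widest gap on leaving out a library. The narrowest gap was without replicate 4, at 0.0851 against 0.104. Without replicate 2 the ratio of Mt3 to Mt1 had an SD of 0.0815, against 0.0828, and that of Mt3 to Mt2 an SD of 0.0752, against 0.0762, so that the excess for Mt3 was present only with that library. With 5 libraries no correlation across samples is given.

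Other genes followed each member more closely than the other metallothioneins did. Among genes of at least 10 CPM whose own log2 SD was at least that of the member, the 5 with the steadiest log2 ratio to it over the 5 libraries were taken, as a description with no test. For Mt3 they were Slc35f6, Sec24c, Clpp, Anapc2 and Osgep, with SDs of 0.0061 to 0.017. Clpp is a mitochondrial protease, Sec24c a coat protein of vesicles that leave the endoplasmic reticulum, and Anapc2 a subunit of the anaphase-promoting complex. For Mt1 they were Ccdc137, Cebpg, Rif1, Mcl1 and Gpc5, with SDs of 0.013 to 0.027. Cebpg is a leucine zipper transcription factor, Mcl1 a protein of the Bcl-2 family that keeps cells alive, and Gpc5 a heparan sulphate proteoglycan of the cell surface. For Mt2 they were Cop1, Wdr37, Psmb1, Acbd5 and Amd1, with SDs of 0.012 to 0.024. Cop1 is a ubiquitin ligase, Psmb1 a proteasome subunit and Amd1 an enzyme of polyamine synthesis. By the same measure Mt2 was at place 240 of 7273 candidates for Mt1. For Mt3, Mt1 was at place 3186 and Mt2 at place 4076 of 9157. The candidates are many and the libraries only 5.

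Cell type markers differed between the same libraries. The tissue label fitted its markers, with the cortical glutamate transporter Slc17a7 at 1926 ± 94.3 CPM and the cortical transcription factor Tbr1 at 232 ± 21.1 CPM, both genes of the forebrain list. Of 8 marker genes of other brain regions 7 were listed, with a summed level of 1.35 to 2.55 CPM, and 1 reached a mean of 1 CPM. This was En2, a midbrain and hindbrain gene, at 1.17 CPM. Tph2, an enzyme of serotonin neurons, was at 0.516 CPM, with 1.22 CPM in replicate 4. The hindbrain and spinal cord genes Hoxb5 and Hoxc4 had no reads, where 3 reads correspond to 0.0673 to 0.0870 CPM. A list score is the mean log2 deviation of the members of a list with at least 1 CPM. Of 15 astrocyte markers, 15 were called by the chi-square test, which called 74.4% of all genes, and 9 were highest in replicate 1, where Mt1 was also highest. Their scores were 0.15, -0.09, -0.03, 0.02 and -0.05 in replicates 1 to 5, and their summed level ran from 10302 to 11368 CPM. The filament gene Gfap was at 116 CPM in replicate 1, while the other 4 libraries had 51.2 to 80.0 CPM. All 15 markers had a larger CV beyond counting error than Mt3, the smallest only just, at 3.37% against 3.35%. Of the 15, 9 had a larger one than Mt1. Most of the 501 genes nearest in level to Mt3 or to Mt1 also had a larger CV than that member. Scores of mature oligodendrocyte markers were 0.33, 0.09, 0.59, -0.54 and -0.47. Leptomeningeal markers scored 0.10, -0.77, -0.88, 1.21 and 0.34 and blood cell markers 0.16, -0.44, -0.75, 1.16 and -0.13, both highest in replicate 4, where Mt2 was highest. In the blood list this library stood furthest apart for the neutrophil genes S100a8, at 5.22 CPM against 0.179 to 0.889 CPM in the others, and S100a9, at 6.55 CPM against 0.359 to 0.626 CPM. The haemoglobin gene Hba-a1 differed less, with 65.2 CPM there against 60.8 CPM in replicate 1, and its near copy Hba-a2 was highest in replicate 1. Scores of excitatory and inhibitory neuron, oligodendrocyte precursor, microglia, endothelial and pericyte markers lay between -0.30 and 0.19. Of these, the oligodendrocyte precursor and microglia scores were also highest in replicate 1. The excitatory, inhibitory, endothelial and pericyte scores were also highest in replicate 4. Of 7 choroid plexus and ependymal markers 2 reached 1 CPM, and the plexus transcript Ttr was at 0.137 CPM. The part of these differences in the values of Mt1, Mt2 and Mt3 was not tested.

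**Figure D5:**
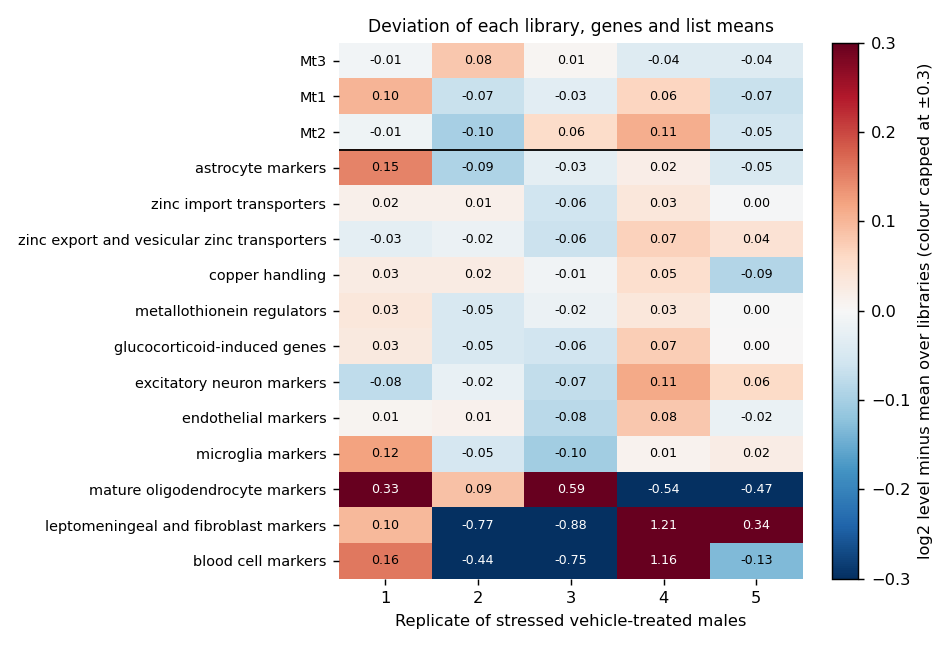
Deviation of each library (columns, replicates 1 to 5) from the mean over libraries on the log2 scale, for the 3 metallothioneins and for list scores of cell types, metal handling and hormone-induced genes (rows), with colour capped at ±0.3. Metallothioneins stay between -0.10 and 0.11, while oligodendrocyte, leptomeningeal and blood markers span -0.88 to 1.21.

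The proteins that move zinc across membranes handle a metal that metallothioneins bind. Among 10 genes of zinc export and vesicle loading, 9 were listed and reached 1 CPM, and 7 of 9 were called by the chi-square test, with a median CV of 6.70%. Slc30a9 was at 162 ± 5.04 CPM, with little spread. Slc30a3, also named ZnT3, which loads zinc into synaptic vesicles, stood at 90.0 ± 12.3 CPM, with 111 CPM in replicate 4 and 81.8 to 89.3 CPM in the others. Slc30a4, an exporter, was at 60.2 ± 6.81 CPM. Slc30a1, the exporter of the plasma membrane and itself an MTF1 target, was at 45.5 ± 2.35 CPM. Slc30a8 is not listed. Among 14 zinc importers, 13 reached 1 CPM and 9 of 13 were called, with a median CV of 7.64%. Slc39a10 was at 244 ± 37.6 CPM, with 299 CPM in replicate 4 and 213 CPM in replicate 3. Slc39a3 was at 79.8 ± 4.52 CPM and Slc39a9 at 45.7 ± 1.22 CPM. Slc39a12, an importer found in astrocytes, was at 41.1 ± 2.91 CPM.

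Copper handling genes varied more than the zinc transporters by their median CV, a difference that was not tested. The lists were not matched in level, and abundant genes vary less. No copper gene was above 26.7 CPM, whereas the zinc importer Slc39a10 was at 244 CPM. Of 12, 11 were listed and 9 of 11 were called, with a median CV of 11.2%. The copper chaperone Atox1 was at 26.7 ± 2.72 CPM, the copper importer Slc31a1 at 19.9 ± 0.800 CPM and Ccs, the chaperone of superoxide dismutase, at 14.1 ± 1.35 CPM. Ceruloplasmin (Cp), a copper ferroxidase made by astrocytes and leptomeninges, was at 11.1 ± 3.52 CPM, from 7.58 CPM in replicate 3 to 16.2 CPM in replicate 4.

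The regulators of metallothionein genes had the smallest median CV of these lists, which were not matched in level. Of 9, 8 were called, and the median CV was 4.36%. Mtf1 stood at 26.7, 26.4, 26.3, 27.5 and 29.6 CPM in replicates 1 to 5, a mean of 27.3 ± 1.35 CPM, and was called with an adjusted p of 0.0392. Its highest library, replicate 5, was the lowest or next to lowest for each metallothionein, nearly tied with replicate 2 for Mt1 and with replicate 4 for Mt3. The score of the whole regulator list was 0.03, -0.05, -0.02, 0.03 and -0.002 in replicates 1 to 5, highest in replicates 1 and 4. A relation of these regulators to the metallothionein levels was not tested. The glucocorticoid receptor gene Nr3c1 was at 106 ± 11.1 CPM, highest in replicate 3 at 119 CPM. Usf2, a helix-loop-helix factor, was at 56.2 CPM, and Stat3, the transcription factor of cytokine signals, at 49.4 CPM. Over the zinc, copper and regulator lists together, 33 of 42 tested genes were called (78.6%), with a median CV of 7.77%, against 74.4% called over all genes. The CV of 35 of these 42 genes was above that of Mt3, of 27 above that of Mt1 and of 25 above that of Mt2. Most genes of like level also had a larger CV, with only 58, 181 and 191 of 501 below Mt3, Mt1 and Mt2. The listed genes were not matched in level, and even the most abundant, Slc39a10 at 244 CPM, was below Mt3. These counts therefore do not set the metallothioneins apart from metal genes.

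Other genes induced by glucocorticoids share that inducer with Mt1 and Mt2. Of 15 such genes 14 were called, against 74.4% of all genes tested. Their median CV was 11.4%, against 8.25% over genes of at least 1 CPM. Klf9, a transcription factor, was at 148 ± 15.0 CPM, the clock gene Per1 at 85.1 CPM, Tsc22d3, also named GILZ, at 52.1 ± 6.42 CPM and the co-chaperone gene Fkbp5 at 23.9 CPM. Their list scores were 0.03, -0.05, -0.06, 0.07 and 0.00 in replicates 1 to 5, highest in replicate 4. Mt1 was also above its mean in replicates 1 and 4 and below it in 2 and 3, but it was below its mean in replicate 5 too. Mt2 was above its mean in replicates 3 and 4. Astrocyte, microglia, leptomeningeal, blood cell and regulator scores had the same signs as the hormone-induced score in replicates 1 to 4. Some of these scores were small, such as 0.01 for microglia in replicate 4. The other lists, such as zinc export, copper handling and endothelial markers, differed in sign in at least 1 of those replicates. These signs were thus shared with some lists and not with others, and a link to the hormone was not tested. No level in unstressed mice was set beside these values.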

How the data were processed

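The submitters' processing notes name STAR 2.6.1d, SAMtools 1.9, featureCounts, Subread 1.6.3, edgeR, mm10 and GRCm38, without roles. Strand setting, gene filter and annotation release are not given in those sources. The values deposited by the authors are on a log2 scale. From the values themselves they were read as log2 of CPM, with 0.5 added to the reads, over an effective library size that was 0.998 to 1.04 times the summed reads. With the lowest value taken as 0 reads, 100% of values came out whole within 1e-06 reads. The table has 25 sample columns, of which 5 were tied to labels by name and 20 were not used.

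CPM, reads and RPKM (GENCODE M21 lengths) were computed in Python 3.11.15 with numpy 2.4.6, pandas 2.3.3 and scipy 1.17.1. Near copies were sought with blastn 2.17.0. Variation was tested with a chi-square test of recovered reads (4 degrees of freedom, genes averaging 5 or more reads, Benjamini-Hochberg over all of them), checked on simulated reads. It covers counting error only, since reads may share a molecule. No count model between groups was possible. Pairs of members were compared with an exact sign-flip permutation test.

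The named genes are the members, the 5 genes of steadiest ratio to each, and at least the 3 most abundant of the zinc, copper, regulator and hormone-induced lists, where any gene of at least 1 CPM may be named. Below those 3, Slc30a1, Slc39a12, Cp, Mtf1 and Fkbp5 were named for their known roles. Cell type and tissue lists allow their 2 most abundant genes. Gfap, Ttr, En2, Tph2, Hoxb5, Hoxc4, S100a8, S100a9, Hba-a2 and Pip5k1a fall outside this rule and were chosen after their values were seen. Members and lists were chosen with earlier results of these data known. The alternatives tried were library scaling by total reads or median of ratios, an addition of 0.1 or 2 reads, a minimum of 20 reads or none, other gene lengths and leaving out each replicate.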

Additional observations from a re-analysis of the deposited data

Results flagged for a closer look

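Among 118 genes and list scores examined, 9 had 1 library set apart from the rest under Dixon's ratio. Chance flags about 1 in 20, or 5.9 here. None was a metallothionein. Slc30a3 stood at 111 CPM in replicate 4, against 81.8 to 89.3 CPM in the others. Slc30a10 stood at 17.5 CPM in replicate 3, against 20.4 to 21.5 CPM. The zinc importer gene Slc39a11 was at 19.8 CPM in replicate 5, against 13.7 to 14.5 CPM. Sco1, which serves copper delivery to cytochrome oxidase, was at 8.79 CPM in replicate 5, against 11.6 to 12.8 CPM. The mineralocorticoid receptor gene Nr3c2 was at 34.9 CPM in replicate 4, against 26.7 to 28.5 CPM. The hormone-induced genes Zbtb16, at 34.9 CPM in replicate 3 against 43.4 to 45.1 CPM, and Pdk4, at 8.32 CPM in replicate 2 against 11.1 to 12.01 CPM, were low in 1 library. The pericyte gene Vtn was at 72.9 CPM in replicate 1, against 56.6 to 60.3 CPM. The forebrain and cortex identity score was -0.14 in replicate 1, where Mt1 and the astrocyte score were highest, against 0.02 to 0.06 in the others.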

How the results depend on the processing

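No paired analysis was possible because the libraries used belong to a single group. Of 177 alternative values, 8 moved and 2 reversed. A level moved if it shifted beyond the spread between libraries, and an SD of a log2 ratio if it shifted beyond its approximate standard error. The other 167 include differences between members that kept only their direction, since no p could pass the threshold. They also include SDs of log2 ratios under other library scalings, which could not change because library size cancels in a ratio. The lengths from the spliced 3-exon transcript and from exon bases free of the antisense gene were chosen after seeing the data. With the longest transcript, Mt3, Mt1 and Mt2 stood at 569.8, 185 and 175 RPKM, and with the spliced transcript at 569.8, 365 and 175 RPKM. With bases free of the antisense gene Mt2 stood at 573 RPKM, and the log2 differences reversed to -0.999 for Mt3 minus Mt2 and -1.83 for Mt1 minus Mt2. With the longest transcript the log2 differences were 1.63 for Mt3 minus Mt1 and 1.71 for Mt3 minus Mt2, and with the spliced transcript 1.06 for Mt1 minus Mt2, all far from the values with merged exons. These shifts follow from the lengths alone, since the reads are the same. Leaving out each replicate gave an SD of the log2 ratio of Mt3 to Mt2 of 0.0752 to 0.138 and of Mt1 to Mt2 of 0.0513 to 0.0898, and a CV beyond counting error of 1.30 to 3.90% for Mt3, 4.19 to 6.00% for Mt1 and 4.28 to 6.47% for Mt2. Between 12646 and 13125 genes then varied beyond counting error. Scaling to total reads shifted libraries by -0.025 to 0.039 and median-of-ratios scaling by -0.0087 to 0.0055 on the log2 scale. With total reads the CV beyond counting error was 4.21% for Mt3, 6.31% for Mt1 and 4.87% for Mt2. With median of ratios it was 3.43, 5.45 and 5.30%, so under both the CV of Mt1 exceeded that of Mt2. Genes of like level were not compared again under these scalings. With 5 libraries no pair difference can pass 0.05 in the exact test.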
